A study of Mus musculus with 12 samples.

Results

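The thermogenic effector genes described here are 10 genes linked to heat production in brown and beige fat, not all of which produce heat themselves. The 10 are Ucp1, Cidea, Cox7a1, Cox8b, Dio2, Elovl3, Otop1, Kcnk3, Acot11 and Pank1. They were taken by gene symbol, and each matched 1 Ensembl row of the count tables, so that they made up 10 of 53379 gene rows. All 10 passed the filter on low counts. The tissue was perigonadal white fat from C57BL/6 mice that were 9 weeks old. They were Cdk7 aKO animals, in which Cdk7 was deleted in adipose tissue, or their control littermates, and they were given saline or CL for 7 days before tissue was taken at zeitgeber time 9. The 4 groups are called wt saline, wt CL, ko saline and ko CL, after the library titles. Each group had 3 libraries, and each library held RNA pooled from 2 mice, 250 ng from each, so that p-values measure the spread between such pools. The labels do not name the promoter that drove the deletion, and they give CL only by that abbreviation, which in this field stands for an agonist of the beta-3-adrenergic receptor. The design asks how the answer of white fat to CL differs when adipose Cdk7, a kinase of the transcription machinery, is removed.

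Noradrenaline or a beta-3 agonist raises cyclic AMP in adipocytes, which releases fatty acids and switches on a set of genes for heat production. Ucp1 lets protons return across the inner mitochondrial membrane without ATP being made, and the other members feed, tune or accompany that leak. In white fat most of these genes are normally low, and long beta-3 stimulation raises them in beige adipocytes.

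The genotype was visible in the libraries. Cdk7 stood at 29.3 to 35.4 CPM (counts relative to the library's total after its adjustment by TMM) in the wt libraries, 11.02 to 11.72 CPM under saline in ko and 18.1 to 23.6 CPM in ko CL, where library 1 was the highest. Libraries held 21892817 to 27985019 gene counts. The tissue label was checked with 18 adipocyte markers, all of which were detected, and their summed level was 70040 to 77630 CPM in wt saline, 80520 to 86850 in wt CL, 26170 to 37440 in ko CL and 42620 to 45610 in ko saline. The summed level of 19 macrophage markers was 1064 to 2025 CPM in the other 3 groups and 13450 to 19450 CPM in ko CL. Zic1 and Lhx8, position genes of classical brown fat, had 0 counts in every library. Foxc2, Cpt1b, Hoxc9 and Cox4i1 also had 0 counts in every library. A value of 0 is therefore not taken to show that the RNA was absent. Epsti1 and Eva1a, which were listed with Zic1 and Lhx8, were detected. They are not position genes, so that the sum of these 4 is no measure of classical brown fat. The summed level of the 4 was 8.58 to 14.03 CPM in the other 3 groups and 18.5 to 24.4 CPM in ko CL. The higher sum of ko CL lay in Epsti1, with a mean of 20.1 CPM there and 6.98 to 10.1 CPM in the other 3 groups. Eva1a went the other way, with a mean of 1.09 CPM in ko CL and 1.80 to 3.69 CPM in the other 3 groups. The part of the macrophage shift in the Epsti1 level was not tested. In ko CL, library 1 stood apart from the other two: its counts differed from those of library 2 by a chi-square of 61.1 per degree of freedom and from those of library 3 by 41.3, while libraries 2 and 3 differed by 13.6. It also had the lowest adipocyte sum of that group, 26170 CPM, and the highest macrophage sum, 19450 CPM. That library 1 differs was known from earlier results of these data, and single libraries were to be compared for that reason. The members are given in each library, and counts of members are given with and without ko CL library 1.

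The members lie on 7 chromosomes of GRCm38 and none overlaps another gene's exons on its own strand. Promoter sequence was matched by symbol in a RefSeq table of build GRCm38.p6 for 7 of the 10 members, and Cidea, Elovl3 and Kcnk3 were not matched. The 250 bases before the start site are shown for 4 members: Ucp1 as the uncoupler itself, Cox7a1 and Cox8b as the respiratory chain subunits of the set, and Dio2 as the member with a full cyclic AMP response element (CRE). Capitals mark the letters of motifs that were searched on both strands. The CRE half-site was searched as TGACG, and the full CRE, which contains that half-site on each strand, as TGACGTCA. The half-site of nuclear receptors was searched as AGGTCA. For promoter elements, the CCAAT box (seen as ATTGG when it lies on the opposite strand) was searched under its own letters, the GC box as GGGCGG, and the TATA box as TATAAA. Sequences run 5′ to 3′ on the gene's strand.
Ucp1, plus strand, chr8:83290098-83290347: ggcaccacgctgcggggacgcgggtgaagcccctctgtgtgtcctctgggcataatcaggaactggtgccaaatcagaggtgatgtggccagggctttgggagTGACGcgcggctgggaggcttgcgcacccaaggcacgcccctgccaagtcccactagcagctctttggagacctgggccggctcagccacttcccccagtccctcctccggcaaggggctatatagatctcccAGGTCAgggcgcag
Cox7a1, plus strand, chr7:30183921-30184170: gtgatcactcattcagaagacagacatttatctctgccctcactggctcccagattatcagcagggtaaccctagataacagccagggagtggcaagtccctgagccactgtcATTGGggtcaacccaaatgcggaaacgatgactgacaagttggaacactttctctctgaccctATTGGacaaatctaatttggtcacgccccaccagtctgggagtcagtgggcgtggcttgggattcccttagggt
Cox8b, minus strand, chr7:140900447-140900696: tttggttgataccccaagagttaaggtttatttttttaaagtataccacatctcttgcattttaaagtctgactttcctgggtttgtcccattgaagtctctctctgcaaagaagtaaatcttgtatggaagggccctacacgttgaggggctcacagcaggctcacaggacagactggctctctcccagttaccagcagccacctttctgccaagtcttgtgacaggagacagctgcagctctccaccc
Dio2, minus strand, chr12:90739039-90739288: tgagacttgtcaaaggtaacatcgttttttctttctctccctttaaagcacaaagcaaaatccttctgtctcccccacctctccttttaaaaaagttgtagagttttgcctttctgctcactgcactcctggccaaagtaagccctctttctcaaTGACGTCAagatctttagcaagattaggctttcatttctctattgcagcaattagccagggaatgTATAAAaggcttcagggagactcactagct

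The Ucp1 window held a CRE half-site 147 bases before the start and a nuclear receptor half-site 14 bases before it. In the Dio2 window the full CRE began 95 bases and the TATA box 30 bases before the start. The Cox7a1 window held 2 CCAAT boxes on the opposite strand, 137 and 74 bases before the start, and the Cox8b window held none of these letters. Over 32851 promoter windows of the same length, 17.8% held TGACG, 14% AGGTCA, 33.8% CCAAT, 32.7% GGGCGG, 12.4% TATAAA and 1.55% TGACGTCA. These are matches of letters, and the data say nothing of what binds there. Starts are those of RefSeq and can differ from the ends of the gene spans given below. The Dio2 window lies upstream of its gene span with a gap between them, and the Cox7a1 window runs into its gene span.

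CL raised every member in wt fat. All 10 were called higher and 0 lower at an adjusted p under 0.05, against 19.6% of the 16554 tested genes called higher and 17.1% called lower. In none of the 10 did a saline library reach the level of a CL library. The share of all tested genes without such overlap was not counted. Without ko CL library 1 the counts were again 10 and 0, against 20.5% and 19% of all tested genes. The median log2 fold change in the full fit was 2.89 over the members and -0.01 over all tested genes. Fewer cells of a type and less RNA per cell cannot be told apart in these bulk libraries.

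**Figure D1:**
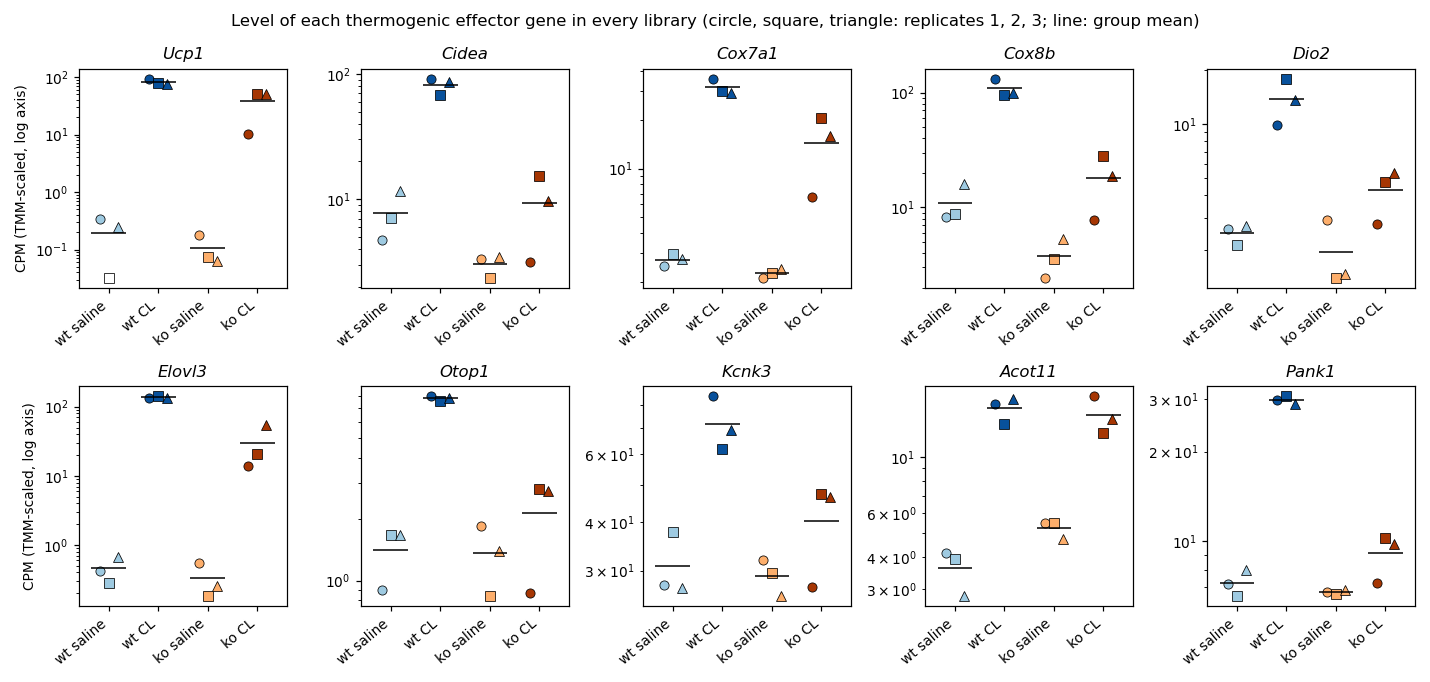
Level of each thermogenic effector gene in every library, in CPM on a log axis that differs between panels. Circle, square and triangle are replicates 1, 2 and 3, lines are group means, and the open square in the Ucp1 panel is the wt saline library with 0 counts, drawn at the bottom of the axis. The wt CL libraries lie above both saline groups in all 10 panels, and library 1 (circle) is the lowest ko CL library in 9 of them.

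Ucp1 (ENSMUSG00000031710, chr8:83290352-83298452, plus strand), the uncoupling protein, was all but absent under saline. The 3 wt saline libraries held 9, 0 and 7 Ucp1 counts, that is 0.339, 0 and 0.249 CPM, and the wt CL libraries held 1693, 1444 and 1505 counts, that is 94.6, 78.5 and 76.6 CPM. The log2 fold change was 8.66 ± 0.74 (SE, adjusted p = 4.46e-06, edgeR's quasi-likelihood test), a size that rests on the few saline counts. Elovl3 (ENSMUSG00000038754, chr19:46131897-46135694, plus strand) elongates saturated very long chain fatty acids and behaved alike. Elovl3 was at 0.414, 0.280 and 0.676 CPM in wt saline and at 135.1, 140.7 and 135.1 CPM in wt CL, a log2 fold change of 8.19 ± 0.57 (adjusted p = 1.09e-06). These were the only members under 1 CPM in all 6 saline libraries of both genotypes.

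Cox7a1 and Cox8b encode the heart and muscle type forms of 2 small subunits of cytochrome c oxidase, the last complex of the respiratory chain, and brown fat uses them too. Cox7a1 (ENSMUSG00000074218, chr7:30184144-30186078, plus strand) was at 2.49, 2.96 and 2.74 CPM in wt saline and 36.1, 30.1 and 29.5 CPM in wt CL, a log2 fold change of 3.55 ± 0.32 (adjusted p = 5.84e-06). Cox8b (ENSMUSG00000025488, chr7:140898945-140900446, minus strand) went from 8.21, 8.77 and 15.9 CPM to 132.5, 95.7 and 99.5 CPM, a log2 fold change of 3.31 ± 0.39 (adjusted p = 3.92e-05). Cidea (ENSMUSG00000024526, chr18:67343604-67367785, plus strand), a protein of the lipid droplet surface that marks brown and beige adipocytes, rose to a similar degree. Its wt saline libraries were at 4.71, 7.05 and 11.6 CPM and its wt CL libraries at 91.8, 68.2 and 85.4 CPM, with a log2 fold change of 3.39 ± 0.41 (adjusted p = 5.14e-05). For each of these 3 genes the lowest CL library was several times the highest saline library.

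Among the genes that tune the pathway, Dio2 makes active thyroid hormone, Otop1 forms a proton channel, and Kcnk3 forms a potassium channel that sets the membrane potential of adipocytes. Dio2 (ENSMUSG00000007682, chr12:90724552-90738438, minus strand) was at 2.60, 2.12 and 2.70 CPM in wt saline and 9.84, 17.8 and 13.6 CPM in wt CL, a log2 fold change of 2.47 ± 0.31 (adjusted p = 6.85e-05). Otop1 (ENSMUSG00000051596, chr5:38275972-38304217, plus strand) was at 0.904, 1.68 and 1.67 CPM and then at 7.99, 7.55 and 7.89 CPM, a log2 fold change of 2.46 ± 0.39 (adjusted p = 0.000358). Per kilobase of exon, Kcnk3 had the highest level of these 3 without CL. Kcnk3 (ENSMUSG00000049265, chr5:30588170-30625271, plus strand) was at 27.5, 37.8 and 27.1 CPM in wt saline and 84.3, 61.7 and 69.1 CPM in wt CL, with the smallest log2 fold change of the set, 1.22 ± 0.20 (adjusted p = 0.000414). The remaining pair act on acyl-CoA and coenzyme A: Acot11 is an acyl-CoA thioesterase and Pank1 a pantothenate kinase, the first step of coenzyme A synthesis. Acot11 (ENSMUSG00000034853, chr4:106744555-106804998, minus strand) was at 4.14, 3.92 and 2.81 CPM in wt saline and 16.2, 13.5 and 17.0 CPM in wt CL, a log2 fold change of 2.11 ± 0.17 (adjusted p = 2.75e-06). Pank1 (ENSMUSG00000033610, chr19:34806940-34879455, minus strand) was at 7.16, 6.53 and 7.97 CPM and then at 29.96, 30.7 and 28.9 CPM, a log2 fold change of 2.05 ± 0.12 (adjusted p = 5.05e-07). Acot11 shares 1263 exon bases with Fam151a on the opposite strand, and the file names state counting on the reverse strand, so these reads were counted apart.

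Under saline few members were called between the genotypes, which does not show that the differences were small. Of the 10 members 1 was called lower in ko saline than in wt saline and 0 higher, against 6.45% and 7.99% of all tested genes, so that the members' share was close to that of all genes. The median log2 difference was -0.32 over the members and -0.01 over all tested genes. The member called was Cox8b, at 2.43, 3.59 and 5.36 CPM in ko saline against 8.21, 8.77 and 15.9 CPM in wt saline, a log2 difference of -1.52 ± 0.45 (adjusted p = 0.0379). The groups did not overlap, but the call was lost in the fits without wt saline library 2 (adjusted p = 0.0573), wt saline library 3 (adjusted p = 0.163), ko saline library 1 (adjusted p = 0.136), ko saline library 2 (adjusted p = 0.11) and wt CL library 3 (adjusted p = 0.0503). Cidea was at 3.34, 2.34 and 3.45 CPM in ko saline, below all wt saline libraries, with a log2 difference of -1.35 ± 0.48 that was not called (adjusted p = 0.0756). It was called without wt saline library 1 (adjusted p = 0.0402), ko CL library 1 (0.0127) or ko CL library 2 (0.039). Acot11 was at 5.48, 5.46 and 4.72 CPM in ko saline, above all wt saline libraries, with a log2 difference of 0.53 ± 0.17 (unadjusted p = 0.00889, adjusted p = 0.057 with edgeR). It was called with DESeq2 (adjusted p = 0.0365) and without wt saline library 1 (adjusted p = 0.0457), ko CL library 1 (0.035) or ko CL library 2 (0.0455). Without ko CL library 1 the saline comparison thus called 2 members lower and 1 higher, against 8.4% and 9.8% of all tested genes.

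The other 7 members were not called between the genotypes under saline. Ucp1 had 5, 2 and 2 counts in ko saline, or 0.181, 0.0732 and 0.0638 CPM, and Elovl3 was at 0.544, 0.183 and 0.255 CPM, so that differences in these genes were hardly detectable at this depth (log2 differences of -0.91, adjusted p = 0.82, and -0.51, adjusted p = 0.826). Cox7a1 was at 2.10, 2.27 and 2.39 CPM in ko saline, below each wt saline library, with a log2 difference of -0.27 ± 0.35 (adjusted p = 0.66). Dio2 was at 2.94, 1.39 and 1.47 CPM, Otop1 at 1.85, 0.842 and 1.40 CPM, and Kcnk3 at 31.9, 29.6 and 25.8 CPM, all overlapping wt saline. Pank1, at 6.71, 6.63 and 6.83 CPM in ko saline, had the smallest error of the set, with a log2 difference of -0.10 ± 0.12 (adjusted p = 0.634).

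CL still raised most of the set in ko fat. Of the members 8 were called higher and 0 lower in ko CL than in ko saline, against 27.2% and 27.5% of all tested genes, and the median log2 fold change was 1.55, against -0.01 over all tested genes. Ucp1 was at 10.2, 51.9 and 51.0 CPM in ko CL, which is 294, 1555 and 1184 counts. Its log2 fold change was 8.43 ± 0.83 (adjusted p = 2.54e-06), beside 8.66 ± 0.74 in wt. Both sizes rest on few saline counts, so that their likeness does not show equal responses. Elovl3 was at 13.8, 20.7 and 54.6 CPM, a log2 fold change of 6.48 ± 0.62 (adjusted p = 1.92e-06). Cox7a1 was at 6.69, 20.4 and 15.9 CPM and Cox8b at 7.76, 28.2 and 18.6 CPM, with log2 fold changes of 2.66 ± 0.32 (adjusted p = 1.42e-05) and 2.25 ± 0.43 (adjusted p = 0.000739). In these 4 genes every ko CL library lay above every ko saline library, and again the share of all tested genes was not counted.

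Acot11 was the member whose ko response came with high levels in all 3 libraries, at 17.4, 12.5 and 14.1 CPM, a log2 fold change of 1.49 ± 0.16 (adjusted p = 5.63e-06). Pank1 was at 7.24, 10.2 and 9.79 CPM, a log2 fold change of 0.43 ± 0.12 (adjusted p = 0.00939), and this call was lost without ko CL library 2 (0.32, adjusted p = 0.061) and in a fit of the 2 ko groups alone (adjusted p = 0.0508). The groups did not overlap in either gene. Cidea was at 3.12, 15.3 and 9.57 CPM, a log2 fold change of 1.61 ± 0.47 (adjusted p = 0.0105) that was lost without ko CL library 2 (1.003, adjusted p = 0.0781). Dio2 was at 2.77, 4.74 and 5.30 CPM, a log2 fold change of 1.14 ± 0.32 (adjusted p = 0.00865). In both genes library 1 of ko CL fell among the ko saline libraries.

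Otop1 and Kcnk3 were the members not called in ko fat. Otop1 was at 0.866, 2.81 and 2.76 CPM in ko CL, a log2 fold change of 0.64 ± 0.40 (adjusted p = 0.189), and Kcnk3 at 27.2, 47.3 and 46.6 CPM, a log2 fold change of 0.47 ± 0.20 (adjusted p = 0.0589). Library 1 lay within the ko saline range in both, and the other two libraries lay above it. Without ko CL library 1 Otop1 was called at 1.005 (adjusted p = 0.0144) and Kcnk3 at 0.67 (adjusted p = 0.00301), so that all 10 members were then higher, against 24.5% of all tested genes. Kcnk3 was also called without wt saline library 2 (adjusted p = 0.046), with every gene that had at least 1 count in the fit (adjusted p = 0.0266) and with DESeq2 (adjusted p = 0.0408).

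**Figure D2:**
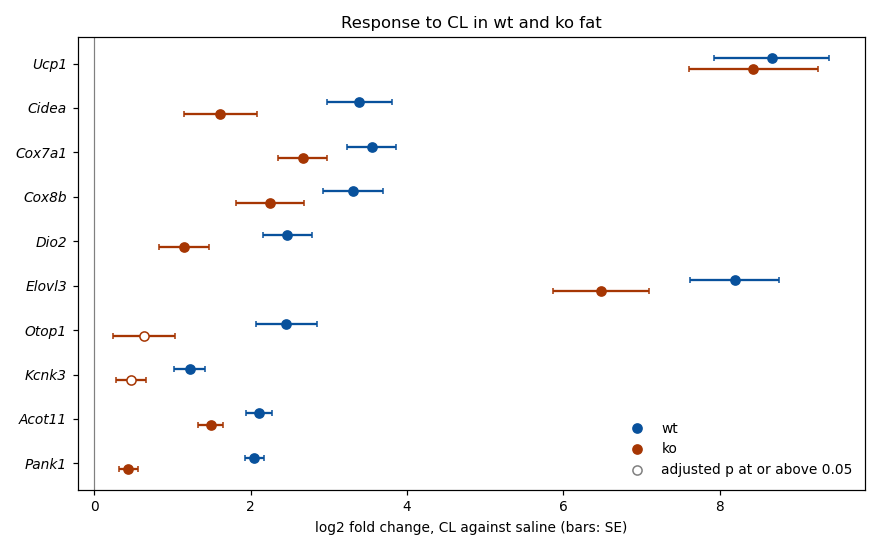
Log2 fold change of each member with CL against saline in wt fat (blue) and ko fat (red), with bars for the SE, which is only approximate for Ucp1 and Elovl3. Open circles mark an adjusted p of 0.05 or more, which holds for Otop1 and Kcnk3 in ko fat. The estimate in ko fat lies left of the one in wt fat for all 10 members, by 0.23 for Ucp1 and 1.82 for Otop1.

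Under CL the members were lower in ko than in wt fat, with Acot11 as the exception. Of the 10, 9 were called lower and 0 higher in ko CL than in wt CL, against 29.3% and 27.6% of all tested genes, and the median log2 difference was -1.70, against 0.003 over all tested genes. The 9 genes did not overlap between the groups, and the share of all tested genes without overlap was not counted here either. Without ko CL library 1 the same comparison called 9 members lower, against 27.7% of all tested genes. Beside this, all 18 adipocyte markers were lower in ko CL than in wt CL (median log2 difference -1.39) and 17 of 19 macrophage markers were higher (median 3.19). The part of the macrophage shift in the members' differences was not tested.

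Cidea had the largest difference of the set. Its ko CL mean was 11.4% of its wt CL mean, and its libraries were at 3.81%, 18.7% and 11.7%, a log2 difference of -3.13 ± 0.41 (adjusted p = 2.27e-05). Cox8b followed at 16.7% of wt CL, with a log2 difference of -2.58 ± 0.37 (adjusted p = 5.62e-05), whereas Cox7a1, the other cytochrome c oxidase subunit of the set, kept 45.0% (log2 difference -1.15 ± 0.27, adjusted p = 0.0027). Elovl3 kept 21.7% of its wt CL mean, a log2 difference of -2.22 ± 0.35 (adjusted p = 0.000131). Otop1 kept 27.4%, Pank1 30.5% and Dio2 31.1%, with log2 differences of -1.87 ± 0.38 (adjusted p = 0.000864), -1.72 ± 0.12 (adjusted p = 9.51e-08) and -1.69 ± 0.30 (adjusted p = 0.000311). Kcnk3 kept 56.3%, a log2 difference of -0.83 ± 0.20 (adjusted p = 0.00262) that was not called when libraries were scaled by their total alone (-0.44, adjusted p = 0.0561).

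Ucp1 kept 45.3% of its wt CL mean, and its log2 difference of -1.15 ± 0.40 was called at an adjusted p of 0.0267. The call depended on the fit. It was lost without wt CL library 1 (-1.04, adjusted p = 0.078) or wt CL library 2 (-1.19, adjusted p = 0.0507), with the 2 CL groups fitted alone (-1.12, adjusted p = 0.0695), with library totals alone as the scaling (-0.76, adjusted p = 0.113) and with DESeq2 (-1.13, adjusted p = 0.201). The ko CL libraries were at 12.2%, 62.4% and 61.3% of the wt CL mean, so that library 1 had less Ucp1 than the other two by a wide margin. Without it the log2 difference was -0.70 (adjusted p = 0.00118).

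Acot11 was the exception. Its ko CL libraries were at 111.4%, 79.9% and 90.5% of the wt CL mean and overlapped the wt CL libraries, with a log2 difference of -0.09 ± 0.15 (adjusted p = 0.631). The 95% interval of that difference, with 8 residual degrees of freedom, was -0.44 to 0.26.

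**Figure D3:**
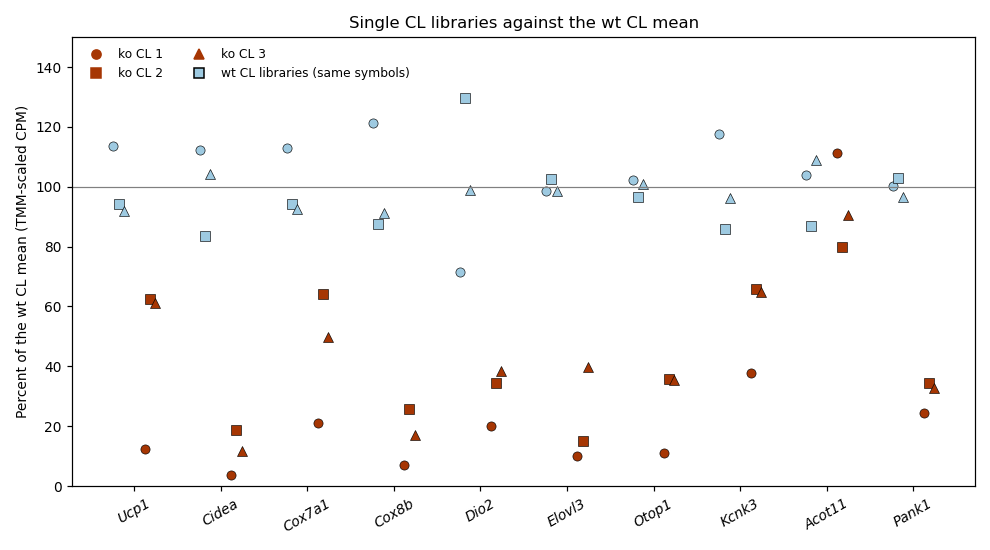
Each CL library as a percent of the wt CL mean of the gene (vertical axis, from CPM), wt CL in light blue and ko CL in red, with circle, square and triangle for replicates 1, 2 and 3. Library 1 of ko CL (red circle) lies lowest for 9 members, between 3.81% for Cidea and 37.9% for Kcnk3, and highest of the ko CL libraries for Acot11, at 111.4%.

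Library 1 of ko CL had less of most members than the other two ko CL libraries. Relative to the mean of libraries 2 and 3 it held 19.8% of the Ucp1, 25.1% of the Cidea, 31.1% of the Otop1, 33.1% of the Cox8b, 36.6% of the Elovl3 and 36.8% of the Cox7a1. These 6 members at 50% or less compare with 1.44% of the 13858 tested genes with a mean of at least 1 CPM in ko CL. Library 1 was set apart beforehand, with these data known, so that this comparison is a description and not a test. Dio2 was at 55.2%, Kcnk3 at 57.9% and Pank1 at 72.3%, while Acot11 was at 130.8%. That library was the lowest of the 3 for 9 of 10 members and for 31.9% of those genes. Elovl3 was split otherwise than Ucp1: library 2, with 51.9 CPM of Ucp1, had 20.7 CPM of Elovl3, against 54.6 CPM in library 3. The wt CL libraries differed less, spanning 71.5% to 129.6% of the gene's mean over the 10 members, with both extremes in Dio2.

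Whether ko fat answered CL less than wt fat was tested as the interaction of genotype and treatment, the ko log2 response minus the wt one. It was more negative in ko for 6 of the 10 members and more positive for 0, against 23.6% and 21.8% of all tested genes, and all 10 estimates were negative. The median difference was -1.19, against -0.03 over all tested genes. Without ko CL library 1 again 6 members were more negative and 0 more positive, against 22.7% and 19.4% of all tested genes, with Cox7a1 called and Kcnk3 not. Pank1 had the firmest difference, -1.61 ± 0.17 (adjusted p = 1.08e-05), and was called in each of the 12 fits that left out 1 library. Otop1 differed by -1.82 ± 0.55 (adjusted p = 0.0169), a call lost in 1 of those 12 fits, without ko saline library 1 (-1.54, adjusted p = 0.0525). Dio2 differed by -1.33 ± 0.44 (adjusted p = 0.0268), which was lost without ko saline library 1 (-0.90, adjusted p = 0.096), wt CL library 2 (-1.10, adjusted p = 0.0728) or wt saline library 2 (-1.23, adjusted p = 0.0582).

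Cidea, Kcnk3 and Acot11 were also called, with less margin. Cidea differed by -1.78 ± 0.62 (adjusted p = 0.0334), and the call was lost without wt saline library 1 or 2, wt CL library 1 or 3, or ko saline library 1 or 3 (-1.75 to -1.53, adjusted p of 0.0582 to 0.082). Kcnk3 differed by -0.75 ± 0.28 (adjusted p = 0.0421), which was lost without wt saline library 1 or 3, wt CL library 1 or 3, ko saline library 1 or 2, or ko CL library 1 (-0.78 to -0.54, adjusted p of 0.0522 to 0.104). Acot11 differed by -0.62 ± 0.23 (adjusted p = 0.0424), which was lost without wt saline library 3, wt CL library 1 or 3, ko saline library 1 or 2, or ko CL library 2 or 3 (-0.61 to -0.46, adjusted p of 0.0679 to 0.109). For Acot11 the smaller response went with a higher saline level in ko fat, while its difference under CL was -0.09 ± 0.15.

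The other 4 members had responses whose difference was not called. Cox8b differed by -1.06 ± 0.58 (adjusted p = 0.155) and Cox7a1 by -0.88 ± 0.44 (adjusted p = 0.125). Cox8b was called without ko CL library 2 (-1.56, adjusted p = 0.0298), and Cox7a1 without ko CL library 1 (-0.55, adjusted p = 0.0387) or library 2 (-1.25, adjusted p = 0.0209). Elovl3 differed by -1.71 (adjusted p = 0.318) and was called without ko CL library 3 (-2.50, adjusted p = 0.00376). For Ucp1 the difference was -0.23 (adjusted p = 0.951). Its standard errors, derived from F, were 0.74 and 0.83 for the 2 responses and 2.63 for their difference, which do not combine, so that errors are only approximate for this gene and no interval is given. The same holds for Elovl3.

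Because the adipocyte markers were themselves lower in ko fat, the members were also set against them. Per 10000 counts of the 18 adipocyte markers, Ucp1 was at 10.02 ± 0.77 (SD, n = 3) in wt CL and 10.7 ± 5.90 in ko CL, and Cox7a1 at 3.84 ± 0.27 and 4.16 ± 1.48. With libraries scaled by those markers, the log2 difference between ko CL and wt CL was 0.10 for Ucp1 (adjusted p = 0.783) and 0.12 for Cox7a1 (adjusted p = 0.576), so that neither was called lower. Kcnk3 turned to 0.48 (adjusted p = 0.0122) and Acot11 to 1.30 (adjusted p = 6.27e-05), both called higher. On this scale 14298 of the 16554 tested genes were called higher and 257 lower, so that a higher call is what most genes received. Cidea, Cox8b, Elovl3 and Pank1 stayed lower on that scale.

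On that scale Cidea was at 9.85 ± 1.28 per 10000 adipocyte marker counts in wt CL and 2.66 ± 1.45 in ko CL (log2 difference -1.88, adjusted p = 3.88e-05). Cox8b was at 13.1 ± 1.88 and 5.25 ± 2.29 (-1.31, adjusted p = 0.000454), and Elovl3 at 16.5 ± 0.89 and 8.72 ± 5.74 (-0.93, adjusted p = 0.00937). Pank1 was at 3.601 ± 0.16 in wt CL, and its ko CL libraries were at 2.77, 2.74 and 2.75 (-0.39, adjusted p = 0.0125), so that library 1 lay close to the other two on this scale. Dio2 at -0.39 (adjusted p = 0.195) and Otop1 at -0.60 (adjusted p = 0.0874) were not called. Ucp1 in ko CL was still lowest in library 1, at 3.89 per 10000 adipocyte marker counts against 13.9 and 14.3. The marker list is meant to follow adipocyte RNA as a whole, but a few genes hold most of its sum. In wt CL Car3, Lpl and Fabp4 were at 22690, 19960 and 16510 CPM on average. Its genes also differ between the genotypes to unequal degrees. Under saline the ko mean was 41.7% of the wt mean for Car3 and 101.1% for Adipoq. This scaling moves the median of all tested genes by 1.36 in the comparison of ko CL with wt CL.

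**Figure D4:**
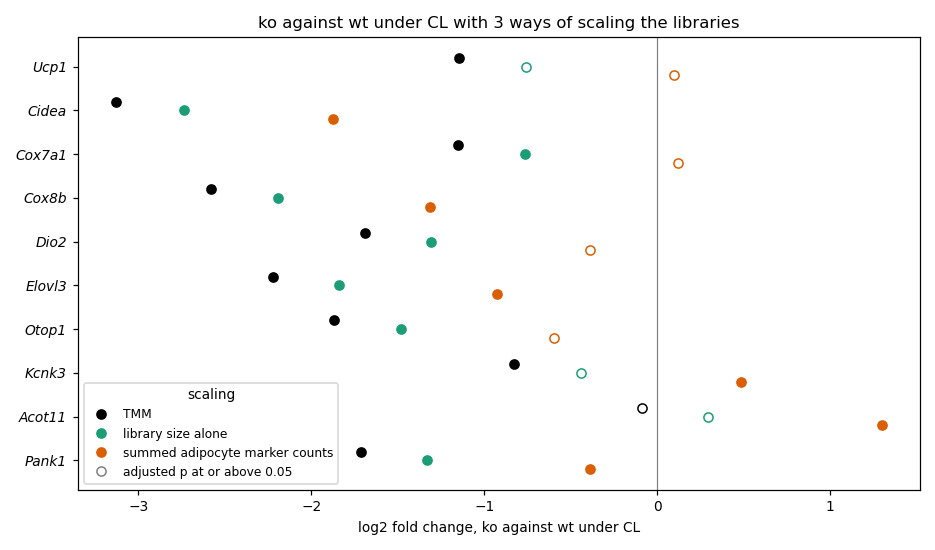
Log2 difference of each member between ko CL and wt CL (horizontal axis) under 3 scalings of the libraries: TMM (black), library totals alone (green) and summed adipocyte marker counts (orange). Open circles mark an adjusted p of 0.05 or more. Cidea, Cox8b, Elovl3 and Pank1 are lower under all 3, while Ucp1, Cox7a1, Kcnk3 and Acot11 lie above 0 when scaled by the adipocyte markers.

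Several members have a close relative that white fat expresses at a higher level, and the share of the pair held by the member was followed on CPM per kilobase of exon. Cox8b made up 11.2% ± 3.92 of Cox8b plus Cox8a in wt saline and 43.1% ± 1.87 in wt CL, but in ko 4.51% ± 0.91 with saline and 20.2% ± 8.05 with CL (SD, n = 3). In Cox8b the ranges of the 2 CL groups did not overlap (41.0% to 44.5% in wt, 11.9% to 27.96% in ko). Cox7a1 made up 3.64% ± 0.37 of Cox7a1 plus Cox7a2 in wt saline and 18.5% ± 1.24 in wt CL, and 3.16% ± 0.05 and 17.1% ± 5.80 in ko, where the CL range of 10.6% to 21.8% took in the wt CL range of 17.2% to 19.7%. The lower Cox7a1 of ko CL thus came with a lower Cox7a2, which differed between ko CL and wt CL by -1.09 ± 0.09 (adjusted p = 6.16e-07). Cox8a differed by -1.09 ± 0.13 (adjusted p = 1.39e-05), against -2.58 for Cox8b.

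Ucp1 made up 0.82% ± 0.72 of Ucp1 plus Ucp2 in wt saline and 74.0% ± 3.24 in wt CL. In ko fat the share was 0.41% ± 0.32 with saline and 24.9% ± 15.6 with CL, with single ko CL libraries at 7.03%, 35.3% and 32.5%. Ucp2, a mitochondrial carrier that many cells including macrophages express, rose with CL in ko fat (log2 fold change 2.01 ± 0.17, adjusted p = 6.55e-07) and did not pass the test in wt fat (0.24 ± 0.17, adjusted p = 0.286). Its level in ko CL was the highest in library 1, which also had the highest macrophage sum, and the part of that in the pair's share was not tested. Cidea made up 0.51% ± 0.20 of Cidea plus Cidec in wt saline, 5.03% ± 0.92 in wt CL, and in ko 0.42% ± 0.08 with saline but 1.37% ± 0.72 with CL. Cidec, the relative that enlarges lipid droplets in white adipocytes, was lower in ko CL than in wt CL by -1.32 ± 0.14 (adjusted p = 4.81e-06), against -3.13 for Cidea. Pank1 made up 0.90% ± 0.16 of Pank1 plus Pank3 in wt saline and 2.30% ± 0.21 in wt CL, against 0.76% ± 0.09 and 1.40% ± 0.12 in ko.

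**Figure D5:**
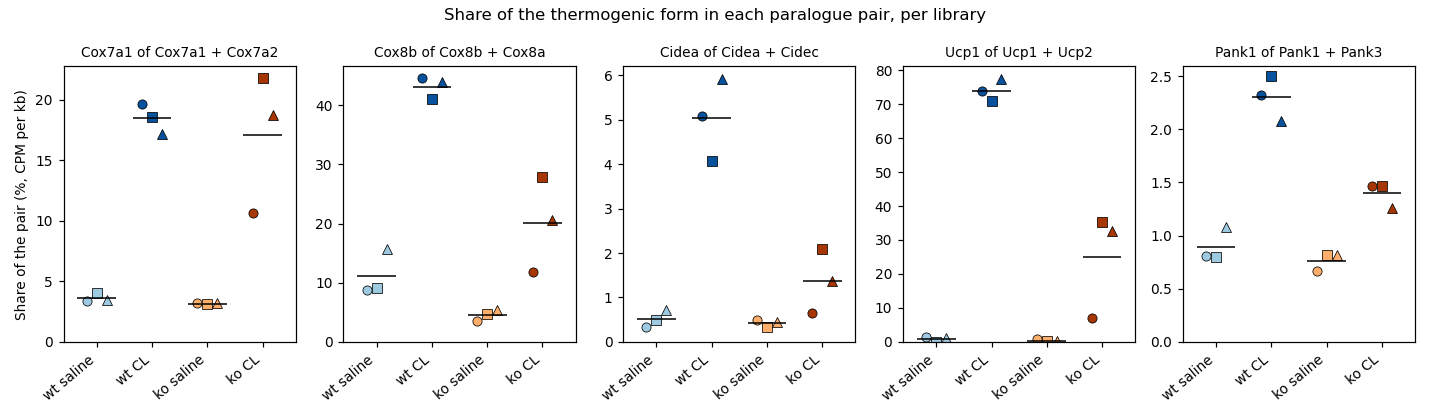
Share of each pair of relatives held by the thermogenic member, in percent of the pair's summed CPM per kilobase, per library (circle, square and triangle for replicates 1, 2 and 3) and group mean (line). Cox7a1 reaches like shares in wt CL and ko CL, 18.5% and 17.1% on average, while Cox8b, Cidea, Ucp1 and Pank1 stay lower in ko CL, with no overlap of the libraries.

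Compared per kilobase of exon, the order of the members changed with CL. In wt saline Cox8b led at 30.5 ± 12.0 CPM per kb and Ucp1 was last at 0.12 ± 0.11, with Kcnk3 (7.75 ± 1.52), Cidea (6.97 ± 3.13) and Cox7a1 (5.10 ± 0.45) between them and overlapping from one to the next. In wt CL Cox8b led at 303.5 ± 56.3 CPM per kb, followed by Cidea (73.4 ± 10.9) and Elovl3 (69.4 ± 1.64), which overlapped, and by Cox7a1 (59.6 ± 6.76) and Ucp1 (50.9 ± 6.07), which overlapped. Kcnk3 stood below them at 18.03 ± 2.90, and Pank1, Acot11, Dio2 and Otop1 at 2.27 to 3.61. In ko CL Cox8b (50.6 ± 28.4), Cox7a1 (26.8 ± 13.1), Ucp1 (23.1 ± 14.6), Elovl3 (15.04 ± 11.05), Kcnk3 (10.2 ± 2.87) and Cidea (8.37 ± 5.46) each overlapped the next in order. Cidea was second in wt CL and the sixth in ko CL.

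The pattern of Ucp1 over the 12 libraries was compared with that of every tested protein-coding gene, each as a percent of its own highest library. Of 14334 such genes the closest was Cox7a1, with a mean absolute difference of 5.12 percentage points, and the next Elovl3, at 7.78. The next 3 were Chchd10, a mitochondrial protein of the intermembrane space (9.95), Tgm3, a transglutaminase (9.98), and the predicted gene Gm20532 (10.5). Cox8b ranked 6 and Cidea 12, while Otop1 ranked 23, Dio2 42, Pank1 71, Kcnk3 106 and Acot11 317. Chchd10 was at 95.5 CPM on average in wt CL and 36.1 in ko CL.

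The regulators upstream of the set did not move one way. Of 29 tested thermogenic regulators (receptors, cyclic AMP genes and transcription factors, from a list of 30), 9 were called higher and 5 lower with CL in wt fat (median log2 fold change 0.09), and 5 higher and 12 lower in ko fat (median -0.16). Over all tested genes 19.6% were called higher and 17.1% lower in wt fat, and 27.2% and 27.5% in ko fat. In wt fat Esrrg (1.98 ± 0.24, adjusted p = 4.43e-05) and Ppara (1.52 ± 0.21, adjusted p = 0.000111), nuclear receptors of oxidative metabolism, rose. The beta-3 receptor gene Adrb3 fell with CL in both genotypes, from 741.1 ± 38.3 to 520.9 ± 17.2 CPM in wt and from 408.8 ± 32.8 to 73.0 ± 9.97 CPM in ko (SD, n = 3). Its log2 difference between ko and wt was -0.86 ± 0.10 in the saline groups (adjusted p = 0.000238) and -2.83 ± 0.10 in the CL groups (adjusted p = 7.75e-10). Adcy3, an adenylate cyclase, was higher in ko CL than in wt CL (1.51 ± 0.11, adjusted p = 1.36e-07), and Ppara was lower (-2.12 ± 0.21, adjusted p = 2.33e-06). In the comparison of ko CL with wt CL 5 regulators were called higher and 16 lower (median -0.46), against 27.6% and 29.3% of all tested genes.

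Of 25 other tested genes of brown and beige fat, from a list of 34, 13 were higher and 4 lower with CL in wt fat, against 19.6% and 17.1% of all tested genes. The higher ones included Pdk4, an inhibitor of glucose oxidation (2.29 ± 0.11, adjusted p = 2.61e-07), Slc25a20, the carnitine carrier (1.79 ± 0.10, adjusted p = 5.03e-07), and Plin5, a lipid droplet protein (1.97 ± 0.20, adjusted p = 1.28e-05). In ko CL against wt CL 13 were lower and 4 higher, against 29.3% and 27.6% of all tested genes. Pdk4 was lower by a log2 difference of -2.43 ± 0.11 (adjusted p = 3.1e-09), while the creatine genes Gatm (3.14 ± 0.16, adjusted p = 5.41e-09) and Ckb (2.74 ± 0.18, adjusted p = 4.76e-08) were higher. With CL both were called lower in wt fat (log2 fold changes of -0.67 for Gatm and -1.13 for Ckb) and higher in ko fat (2.44 and 1.66). The part of the macrophage shift in these differences was not tested. Of 14 listed nuclear subunits of cytochrome c oxidase other than the members, 13 were tested. Cox4i1 was not, with 0 counts in every library. With CL in wt fat 10 rose and 0 fell (median 1.05), against 19.6% and 17.1% of all tested genes. In ko CL 11 were lower and 1 higher than in wt CL (median -1.06), against 29.3% and 27.6% of all tested genes. The higher one was Cox6a2, a muscle form listed at 0 in every wt CL library and at 0.416 to 0.733 CPM in ko CL. Cox7a1 thus differed between ko CL and wt CL by about as much as that list's median, and Cox8b by more.

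Of 33 tested relatives of the members, from a list of 44, 13 rose and 5 fell with CL in wt fat, against 19.6% and 17.1% of all tested genes. In ko CL 7 were higher and 16 lower than in wt CL, against 27.6% and 29.3%. Elovl4, which makes longer fatty acids than Elovl3, rose in wt fat (3.30 ± 0.37, adjusted p = 2.73e-05). Kcnk6, a relative of Kcnk3, was higher in ko CL than in wt CL (1.89 ± 0.12, adjusted p = 5.82e-08), against -0.83 for Kcnk3. With CL Kcnk6 was called lower in wt fat (-0.39) and higher in ko fat (1.68), and the part of the macrophage shift in this was not tested. The median of the relatives was 0.18 for CL in wt fat and -0.25 for ko CL against wt CL, against 2.89 and -1.70 for the members. In the groups compared, markers of skeletal muscle, where Cox7a1 and Cox8b are also high, summed to 6.92 to 8.94 CPM in wt CL and 11.6 to 13.97 CPM in ko CL, against 33.7 to 75.1 CPM in wt saline and 12.98 to 22.9 CPM in ko saline. Of 9 tested muscle markers 1, Mb, was called higher with CL in wt fat (0.505 to 2.36 CPM on average) and 2 were called lower, against 19.6% and 17.1% of all tested genes. Among the 2 was Acta1 (43.5 to 1.32 CPM), which made up most of the wt saline sum. In ko CL against wt CL 5 were called higher and 0 lower, against 27.6% and 29.3% of all tested genes. These 5 were low, with means of 0.594 to 3.73 CPM in ko CL. The part of muscle RNA in the levels of Cox7a1 and Cox8b was not tested.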

How the data were processed

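RNA of 12 pools of 2 mice was sequenced. The deposited files hold raw counts per Ensembl gene, made by the authors with STAR and HTSeq on GRCm38 per the submitters' processing notes, with versions and annotation release not given in the sources used here. Groups were taken from the titles, because the genotype characteristic follows the treatment and contradicts 6 of the 12 titles, whereas the design describes both genotypes under both treatments. Of 53379 gene rows 53274 matched GENCODE M21. HTSeq's 5 summary lines (12.5% to 17.2% of reads) were left out.

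Counts were fitted in R 4.3.3 with edgeR 4.0.16 (quasi-likelihood test, TMM scaling, filterByExpr with a minimum count of 10, 1 mean per group, 8 residual degrees of freedom), and p-values were adjusted by Benjamini-Hochberg over 16554 genes and called at 0.05. Standard errors were derived from each log2 fold change and the F statistic of its test, and are only approximate for genes with counts near 0. One count was worth 0.0319 to 0.0559 CPM, which limits the precision of Ucp1 and Elovl3 under saline. Alternatives were DESeq2 1.42.0 (test and size factors), library totals or adipocyte marker counts as the scaling, no filter, the compared groups alone, a replicate block, and each library left out. The members and lists were chosen with earlier results of these data known. From each list up to 4 genes per comparison were named, those with the smallest adjusted p whose mean reached 1 CPM in either group, beside the members, 5 relatives of members, and the 5 genes closest to Ucp1. Cox6a2, Mb, Acta1, Epsti1, Eva1a, Cox4i1, Cpt1b, Hoxc9 and Foxc2 were named after their values were seen. The adipocyte markers Car3, Lpl, Fabp4 and Adipoq were also named outside this rule.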

Additional observations from a re-analysis of the deposited data

Results flagged for a closer look

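A test of the difference between the CL responses of ko and wt fat was passed by 6 members, each with the smaller response in ko. The log2 difference was -1.82 for Otop1 (5.49-fold higher with CL in wt fat, 1.56-fold in ko fat), -1.78 for Cidea (10.5-fold and 3.06-fold) and -1.61 for Pank1 (4.13-fold and 1.35-fold). It was -1.33 for Dio2 (5.54-fold and 2.21-fold), -0.75 for Kcnk3 (2.33-fold and 1.39-fold) and -0.62 for Acot11 (4.30-fold and 2.81-fold). With the libraries scaled by adipocyte marker counts 3 of them were called, Cidea, Otop1 and Pank1.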

How the results depend on the processing

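The CL response in wt fat called 10 members higher under every alternative run. In the fits without 1 library the members called higher with CL in ko fat numbered 6 to 10, those lower in ko CL than in wt CL 8 to 9, those with a more negative response in ko 1 to 7 (3 without wt CL library 1, 3 without wt CL library 3 and 1 without ko saline library 1), and, under saline, those lower in ko 0 to 2 and higher 0 to 1. Under saline, members higher in ko numbered 1 with library totals alone, 3 with adipocyte scaling, 1 with no filter and 1 with DESeq2, against 0, and members lower numbered 2 with no filter and 2 with the compared groups alone, against 1. For ko CL against wt CL adipocyte scaling gave 2 higher and 4 lower, against 0 and 9. For the difference between responses library totals alone gave 2 more negative and adipocyte scaling 3, against 6.

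Library totals alone moved the median of all tested genes to -0.33 for CL in wt, 0.15 for ko against wt under saline, 0.39 under CL and 0.20 for the difference between responses, and adipocyte scaling moved them to -0.19, 0.74, 1.36 and 0.58, and to 0.43 for CL in ko. The share of genes called higher moved with them. With library totals alone 8667 genes were higher and 2237 lower in ko CL than in wt CL, with adipocyte scaling 14298 and 257, against 4561 and 4847. Under saline these were 3733 and 506, and 13390 and 125, against 1323 and 1068. For CL in wt fat they were 1329 and 8048, and 1237 and 2696, against 3249 and 2836. For CL in ko fat they were 3701 and 5475, and 8110 and 1614, against 4497 and 4546. For the difference between responses they were 5386 and 2267, and 7041 and 678, against 3607 and 3903.

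Under saline the log2 difference changed sign with library totals alone for Otop1 (0.10), Kcnk3 (0.075) and Pank1 (0.052), and with adipocyte scaling for Cox7a1 (0.47), Dio2 (0.39), Elovl3 (0.24), Otop1 (0.69), Kcnk3 (0.66) and Pank1 (0.64). With 1 library left out it ranged from -0.33 to 0.19 for Otop1 and from -0.17 to 0.091 for Kcnk3. Under CL it changed sign with library totals alone for Acot11 (0.30), and with adipocyte scaling for Ucp1 (0.10), Cox7a1 (0.12), Kcnk3 (0.48) and Acot11 (1.30), and for Acot11 it ranged from -0.24 to 0.006 with 1 library left out. The difference between responses changed sign for Ucp1 with library totals alone (0.005) and adipocyte scaling (0.29), with a range of -0.84 to 0.35 over the fits without 1 library, and for Acot11 with adipocyte scaling (0.034). The cause of these changes was not tested beyond the scalings themselves. Shares of a pair taken on raw counts differ from those per kilobase by construction, since the relatives differ in length: Ucp1 was at 40.1% of its pair in wt CL and 7.73% in ko CL.

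Libraries with the same number did not visibly deviate together (correlations of -0.35 to 0.18 over 18 pairs, 2 above 0.1). Libraries with different numbers ranged from -0.42 to 0.37 over 36 pairs, 6 above 0.1. With 3 libraries per group this check cannot show that the numbers are unpaired, and the design names no pairing. With a replicate block the Kcnk3 difference between responses was -0.78 (adjusted p = 0.0517), and no other call on a member changed.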
